A study of Mus musculus with 62 samples.

Results

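MHC class II antigen presentation was followed in mouse hippocampus through 7 genes: Cd74, H2-Aa, H2-Ab1, H2-Eb1, H2-DMa, H2-DMb1 and Ciita. The 7 genes were chosen by name among the 53975 gene identifiers of the deposited tables, and all 7 were found. Long RNA had been sequenced from the hippocampi of 17 mice, the left and right hippocampus of each mouse being pooled into 1 library. APP NL-G-F mice, a model in which the App gene carries mutations that cause amyloid plaques, gave 3 libraries at 3 months, 3 at 6 months and 3 at 12 months of age. C57BL/6J mice, the wild type (WT), gave 2 libraries at 3 months, 3 at 6 months and 3 at 12 months. The labels name no treatment of the mice and do not give their sex. Plaques are hardly detectable in this model at 3 months, appear around 6 months and are extensive at 12 months, per the series' design text. The whole tissue was used, so fewer or more cells of a type and less or more RNA per cell cannot be told apart in any value below.

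MHC class II molecules present peptides from engulfed or endosomal protein to CD4 T cells. An alpha and a beta chain are assembled with the invariant chain, Cd74, which fills the groove until endosomal proteases trim it to a short peptide. The H2-DM heterodimer then exchanges that peptide for others, and Ciita, the class II transactivator, drives transcription of the whole set by binding factors that sit on a conserved promoter module. In the brain these genes are known mainly from microglia, border macrophages and infiltrating immune cells, and resting microglia carry little class II.

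Of the 7 members, 5 lie in the class II region of mouse chromosome 17. In GRCm38, H2-DMa (ENSMUSG00000037649) spans chr17:34135182-34139101 on the plus strand and H2-DMb1 (ENSMUSG00000079547) spans chr17:34153072-34160230 on the plus strand. H2-Ab1 (ENSMUSG00000073421) lies at chr17:34263209-34269418 on the plus strand, H2-Aa (ENSMUSG00000036594) at chr17:34282744-34287827 on the minus strand and H2-Eb1 (ENSMUSG00000060586) at chr17:34305877-34316199 on the plus strand. RefSeq promoter windows of GRCm38.p6 were read for 4 of the 7 members, with Cd74 left out of the count beforehand. The 150 bases before the RefSeq start are shown for the H2-Aa alpha chain and the H2-Eb1 beta chain, because both were among the members highest in 12-month APP libraries and both carry the letters TGATTGG (capitals), a form of the Y box that NF-Y binds in the class II promoter module. The H2-Aa stretch is chr17:34287824-34287973 on the minus strand and the H2-Eb1 stretch is chr17:34305717-34305866 on the plus strand, each written 5′ to 3′ along the gene.
H2-Aa: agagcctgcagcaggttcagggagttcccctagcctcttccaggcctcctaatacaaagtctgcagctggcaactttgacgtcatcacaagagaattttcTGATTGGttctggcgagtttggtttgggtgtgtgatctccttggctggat
H2-Eb1: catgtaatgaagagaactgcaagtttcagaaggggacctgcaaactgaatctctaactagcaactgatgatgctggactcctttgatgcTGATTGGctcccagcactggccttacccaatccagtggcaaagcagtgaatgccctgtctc
The capitals begin 50 bases before the start in H2-Aa and 61 bases before it in H2-Eb1. The H2-DMb1 window holds the same letters 63 bases before its start. The H2-DMa windows (chr17:34122582-34122881 and chr17:34125268-34125567) had no match to them on either strand. Those windows lie outside the H2-DMa span given above. Read on both strands (TGATTGG or CCAATCA), the letters occur in 5.71% of the 32851 RefSeq windows of 150 bases. The shorter core ATTGG or CCAAT, which lies within TGATTGG, occurs in 24.5% of those windows. A match describes the letters and is no evidence of binding.

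Values are TPM as deposited (each gene's share of a library's transcripts, corrected for gene length), rescaled between libraries by the median of ratios, and are called scaled TPM here. Relative depth, read as the deposited coverage per FPKM, ran from 1.42 to 3.04 over the 17 libraries, and no read counts were used. Markers of hippocampal neurons were present in every library, their sum over 7 genes running from 285 scaled TPM in APP 3-month replicate 1 to 905 in a 6-month APP library. Xist, transcribed from the inactive X chromosome, was at 70.2 to 137 scaled TPM in the 9 APP and the 2 WT 3-month libraries and at 0.263 to 0.521 in the 6 WT libraries of 6 and 12 months, where the Y-linked Ddx3y was at 18.7 to 28.0 (at most 0.0792 elsewhere). Genotype and sex therefore cannot be told apart at 6 and 12 months, nor age and sex among WT libraries, while the APP libraries of different ages share the Xist pattern.

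Cd74, the invariant chain (ENSMUSG00000024610), had the largest log2 change among the tested members for genotype at 12 months in the main fit. The same held for 12 against 3 months in APP mice. The gene lies on the plus strand of chromosome 18, from 60803848 to 60812646 in GRCm38. Its level was 97.4, 23.2 and 17.2 scaled TPM in APP replicates 1, 2 and 3 at 12 months against 1.56, 2.53 and 3.28 in WT replicates of that age. Every 12-month APP library lay above every other library, and replicate 1 stood far above its 2 companions. The mean was 45.9 ± 44.7 (SD, n = 3) in APP against 2.46 ± 0.864 (SD, n = 3) in WT, an 18.7-fold ratio of means that became 8.22-fold without APP replicate 1. On the log2(scaled TPM + 1) scale, which understates changes of low genes, Cd74 was 3.38 higher in APP at 12 months (SE 0.53, limma adjusted p 0.00919). Without WT 12-month replicate 1 the call was lost (limma adjusted p 0.0531), as it was in a fit of the 12-month libraries on their own (limma adjusted p 0.103). Over its 15 alternatives the adjusted p ran from 0.00458 to 0.103.

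At 6 months Cd74 was at 2.00, 10.1 and 2.32 scaled TPM in APP and 0.919, 0.907 and 0.606 in WT. All APP libraries lay above all WT libraries, with APP replicate 2 apart from the rest, but the difference of 1.41 (SE 0.53) did not pass (limma adjusted p 0.185). It passed only with TPM as deposited (1.83, limma adjusted p 0.0115), a scaling that raised the median of all genes by 0.60 and called 10267 genes higher and 72 lower at this age, against 75 higher and 222 lower here. Relative to that median the difference was no larger than with scaled TPM. At 3 months the levels were 1.17, 0.962 and 0.943 in APP and 0.926 and 1.54 in WT, and the groups overlapped (log2 difference -0.13, limma adjusted p 0.963). Within APP mice, Cd74 was 4.12 higher on the log2 scale at 12 than at 3 months (SE 0.53, limma adjusted p 0.00152), a call kept in all 15 alternative settings. Between 6 and 12 months it rose by 2.87 (limma adjusted p 0.0312). That call was lost on leaving out APP 6-month replicate 1 or 3 or APP 12-month replicate 1 or 2 (limma adjusted p 0.0926, 0.160, 0.123 and 0.0555), and the adjusted p ran from 0.00300 to 0.252 over its 15 alternatives. Ordered by mean, the groups ran APP 12 months, APP 6 months, WT 12 months, WT 3 months, APP 3 months and WT 6 months. The ranges of APP 6 and WT 12 months overlapped, as did those of WT and APP at 3 months.

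**Figure D1:**
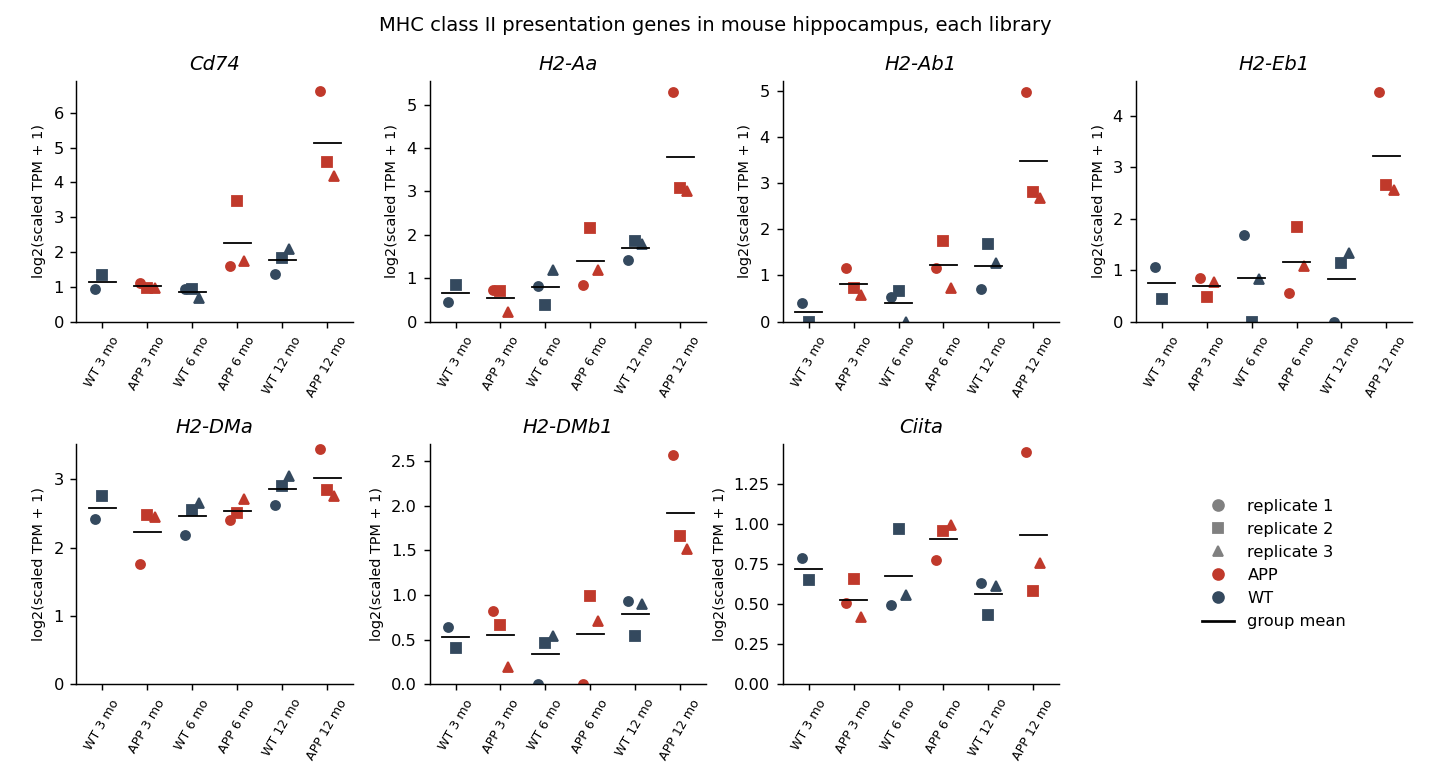
Level of each of the 7 class II genes in each library, as log2(scaled TPM + 1) on the y axis, by genotype and age on the x axis, with 1 marker per library (circle, square and triangle for replicates 1, 2 and 3) and a line at the mean of the log values. The 12-month APP libraries lie above all other libraries for Cd74, H2-Aa, H2-Ab1, H2-Eb1 and H2-DMb1, and replicate 1 is the highest of the 3 in every panel.

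The classical chains H2-Aa, H2-Ab1 and H2-Eb1 were likewise highest in the 12-month APP libraries, at lower levels than Cd74. H2-Aa, the alpha chain of the H2-A molecule, was at 38.2, 7.41 and 7.09 scaled TPM in APP and 1.67, 2.63 and 2.43 in WT at 12 months. H2-Ab1, its beta chain, was at 30.2, 5.96 and 5.39 in APP and 0.625, 2.19 and 1.39 in WT. H2-Eb1, the beta chain of the H2-E molecule, was at 21.0, 5.33 and 4.87 in APP and 0, 1.20 and 1.53 in WT. For each of the 3 chains the APP and WT libraries did not overlap at 12 months, and APP replicate 1 was again far above replicates 2 and 3.

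None of the 3 chains passed the test of genotype at 12 months. H2-Aa was 2.11 higher in APP on the log2 scale (SE 0.49, limma adjusted p 0.0936). H2-Ab1 was 2.27 higher (SE 0.48, limma adjusted p 0.0608) and H2-Eb1 2.40 higher (SE 0.53, limma adjusted p 0.0733). H2-Ab1 and H2-Eb1 passed with TPM as deposited (limma adjusted p 0.0245 and 0.0376), which moved the median of all genes by 0.12, and with array weights, which weigh libraries by their scatter (limma adjusted p 0.0417 and 0.0345). Over 14 alternatives each, the adjusted p ran from 0.0245 to 0.296 for H2-Ab1 and from 0.0345 to 0.334 for H2-Eb1. The ratio of the APP to the WT mean was 7.82 for H2-Aa, 9.89 for H2-Ab1 and 11.4 for H2-Eb1, and 3.23, 4.05 and 5.60 without APP replicate 1.

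With age in APP mice all 3 chains rose. At 3 months H2-Aa was at 0.646, 0.630 and 0.165 scaled TPM, H2-Ab1 at 1.24, 0.649 and 0.486, and H2-Eb1 at 0.793, 0.385 and 0.703, all below the lowest 12-month value of the same gene. H2-Aa rose by 3.24 on the log2 scale from 3 to 12 months (SE 0.49, limma adjusted p 0.00317). H2-Ab1 rose by 2.66 (SE 0.48, limma adjusted p 0.00885) and H2-Eb1 by 2.53 (SE 0.53, limma adjusted p 0.0187). When only the 2 APP groups were fitted the adjusted p was 0.0634, 0.101 and 0.0742 in that order. H2-Eb1 also lost its call without APP 12-month replicate 1 (limma adjusted p 0.0809), without APP 3-month replicate 2 (limma adjusted p 0.0548) and with a pseudocount of 0.1 (limma adjusted p 0.120). The lowest adjusted p over the alternatives was 0.00258, 0.00722 and 0.0176 in the same order.

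The step from 6 to 12 months was less firm for these chains. At 6 months the APP libraries had 0.802, 3.48 and 1.29 scaled TPM of H2-Aa, 1.25, 2.38 and 0.648 of H2-Ab1 and 0.460, 2.60 and 1.11 of H2-Eb1, and replicate 2 was the highest for each. H2-Aa was 2.39 higher at 12 months (limma adjusted p 0.0451) but passed in only 3 of 14 alternative settings (adjusted p 0.0214 to 0.229). H2-Ab1 did not pass (limma adjusted p 0.0539), nor did H2-Eb1, which was 2.07 higher (limma adjusted p 0.117). The ratio of Cd74 to the sum of the 3 chains was 0.992 to 1.24 in 12-month APP libraries and 0.420 to 0.679 in 12-month WT libraries. It was 0.437 to 0.696 and 0.760 to 1.20 in APP libraries of 3 and 6 months and 0.526 to 1.33 and 0.267 to 1.03 in WT libraries of those ages, so single 6-month APP, 3-month WT and 6-month WT libraries reached the level of the 12-month APP libraries.

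The peptide exchange molecule H2-DM is built of an alpha and a beta subunit. H2-DMa, the alpha subunit, was present in every library, and its lowest value, 2.38 scaled TPM, exceeded the lowest of every other member. At 12 months it stood at 9.82, 6.17 and 5.76 scaled TPM in APP and at 5.13, 6.50 and 7.30 in WT, and the groups overlapped (log2 difference 0.15, SE 0.22, limma adjusted p 0.982). In APP mice of 3 months it was at 2.38, 4.55 and 4.48, with replicate 1, the library low in neuronal markers, the lowest, and at 6 months it was at 4.29, 4.69 and 5.55. It was 0.78 higher at 12 than at 3 months in APP, with no overlap and a limma adjusted p of 0.0750.

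H2-DMb1, the beta subunit, had a mean TPM of 0.967, under the minimum of 1 for the test. At 12 months it was at 4.92, 2.15 and 1.87 scaled TPM in APP and 0.909, 0.453 and 0.868 in WT, with no overlap. In APP mice it was at 0.759, 0.581 and 0.140 at 3 months and at 0, 0.982 and 0.633 at 6 months, below every 12-month value. In a fit with no minimum, over 35961 genes, H2-DMb1 was 1.12 higher in APP at 12 months (limma adjusted p 0.247) and 1.36 higher at 12 than at 3 months in APP (limma adjusted p 0.0451). Its near-identical neighbour H2-DMb2 was at 0 to 0.385 scaled TPM over the 17 libraries, and how the counting divided reads between the pair is not stated.

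Ciita, the transactivator (ENSMUSG00000022504), lies on the plus strand of chromosome 16, from 10480059 to 10528418 in GRCm38, and was low in every library. Its level was 1.73, 0.495 and 0.688 scaled TPM in 12-month APP libraries and 0.551, 0.348 and 0.532 in 12-month WT libraries, and the groups overlapped. In APP mice it was 0.423, 0.577 and 0.337 at 3 months and 0.708, 0.941 and 0.992 at 6 months, so all 6-month values lay above all 3-month ones. With no minimum, the log2 difference at 12 months was 0.37 (SE 0.20, limma adjusted p 0.823). Mean coverage of Ciita was between 0.132 and 0.490 reads per base over the 17 libraries. Ciita also overlaps Dexi on the opposite strand (10.8 to 22.3 scaled TPM over the 17 libraries), and whether the counting used strand is not stated.

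**Figure D2:**
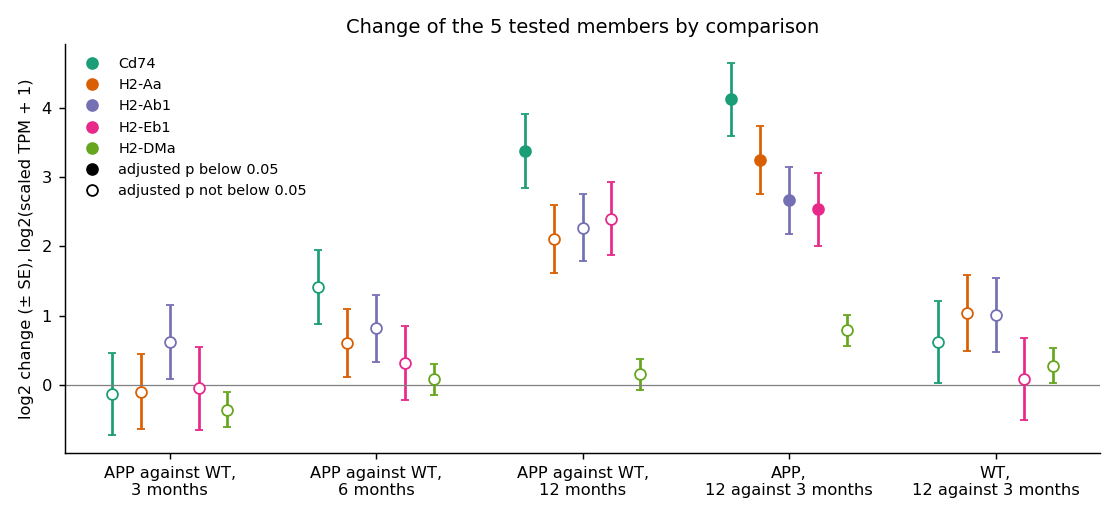
Change of the 5 members with a mean TPM of at least 1 in 5 comparisons (x axis), as the difference of group means on the log2(scaled TPM + 1) scale (y axis), with bars of 1 SE from limma and filled points where the adjusted p is below 0.05. Only Cd74 is filled for genotype at 12 months, and Cd74, H2-Aa, H2-Ab1 and H2-Eb1 are filled for age in APP mice, while H2-DMa is unfilled in all 5.

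Of the 7 members, 5 had a mean TPM of at least 1 and entered the test, and H2-DMb1 and Ciita did not. H2-Aa, H2-Ab1 and H2-Eb1 reached that mean largely through the 12-month APP libraries, so the counts that follow describe the members and support nothing about them as a set. Between genotypes, 0 members were called at 3 months (background 0.303% of 17840 genes), 0 at 6 months (1.66%) and 1, higher, at 12 months (0.443% of genes either way and 0.420% higher). With age in APP mice, 4 were called higher from 3 to 12 months (3.28% of genes either way and 1.92% higher), 2 from 6 to 12 months (0.538% and 0.516%) and 0 from 3 to 6 months (2.37% either way). No member was called lower in any of these comparisons. Where nothing was called by limma, an unadjusted p under 0.05 was reached by 0 members for genotype at 3 months, 1 for genotype at 6 months and 1 for 6 against 3 months in APP mice. The median log2 change of the 5 tested members was 2.27 for genotype at 12 months and 2.66 for 12 against 3 months in APP, against -0.0046 and 0.0077 over all genes tested.

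Counted without a test, 5 of 7 members had all 12-month APP libraries above all 12-month WT libraries, against 8.67% of all genes tested. The count was 1 of 7 at 3 months (13.8% of genes) and 2 of 7 at 6 months (11.1%). For 12 against 3 months in APP it was 6 of 7 (11.3%), for 12 against 6 months 6 of 7 (10.7%) and for 6 against 3 months 3 of 7 (10.2%). The genotype comparisons at 6 and 12 months carry the difference in Xist and Ddx3y given above, whose part in the result was not tested. The age comparisons within APP mice do not carry that difference.

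WT mice showed smaller differences with age. The WT libraries of 3 and 12 months also differ in Xist and Ddx3y as given above, so age and sex cannot be told apart here. The change of the genotype difference from 3 to 12 months carries the same difference. H2-Aa was at 0.363 and 0.798 scaled TPM at 3 months, 0.774, 0.298 and 1.27 at 6 months and 1.67, 2.63 and 2.43 at 12 months. All 12-month WT values of H2-Aa lay above all younger ones, but the log2 difference of 1.04 from 3 to 12 months did not pass (SE 0.54, limma adjusted p 0.648). In the WT libraries of 3 and 6 months H2-Ab1 was at 0 to 0.587 scaled TPM, H2-Eb1 at 0 to 2.23, H2-DMa at 3.54 to 5.74, H2-DMb1 at 0 to 0.557 and Ciita at 0.407 to 0.958. From 3 to 12 months H2-Ab1 was 1.01 higher (limma adjusted p 0.650) and Cd74 0.61 higher (limma adjusted p 0.835). No member was called between 12 and 3 months in WT (background 0.0617%), where 0 members had an unadjusted p under 0.05, while 3 of 7 had all 12-month above all 3-month libraries (13.2% of genes) and 1, Ciita, the reverse (13.7%). The change of the genotype difference from 3 to 12 months was 3.50 for Cd74 (SE 0.80, limma adjusted p 0.145), and none of the 5 tested members was called for it (background 0.0729%), while 4 had an unadjusted p under 0.05. A larger genotype difference at 12 than at 3 months was thus not established for any member.

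The 12-month APP libraries varied more among themselves in the class II genes than in most others. Replicate 1 was at 4.82 times the mean of replicates 2 and 3 for Cd74, 5.26 for H2-Aa, 5.32 for H2-Ab1 and 4.12 for H2-Eb1. The ratio was 2.92 for Ciita, 2.45 for H2-DMb1 and 1.65 for H2-DMa. Over all genes tested the median ratio was 0.997, and 0.443% of genes reached a ratio of at least 4. The 12 microglia genes had a median ratio of 1.09 (0.487 to 1.57) and the 10 genes of plaque-associated microglia 1.24 (0.714 to 1.55), so no gene of either list reached a ratio of 4. The 6 antigen-processing genes had a median ratio of 1.11. For the 8 tested genes of interferon gamma signalling the median ratio was 1.35 (0.739 to 1.84).

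**Figure D3:**
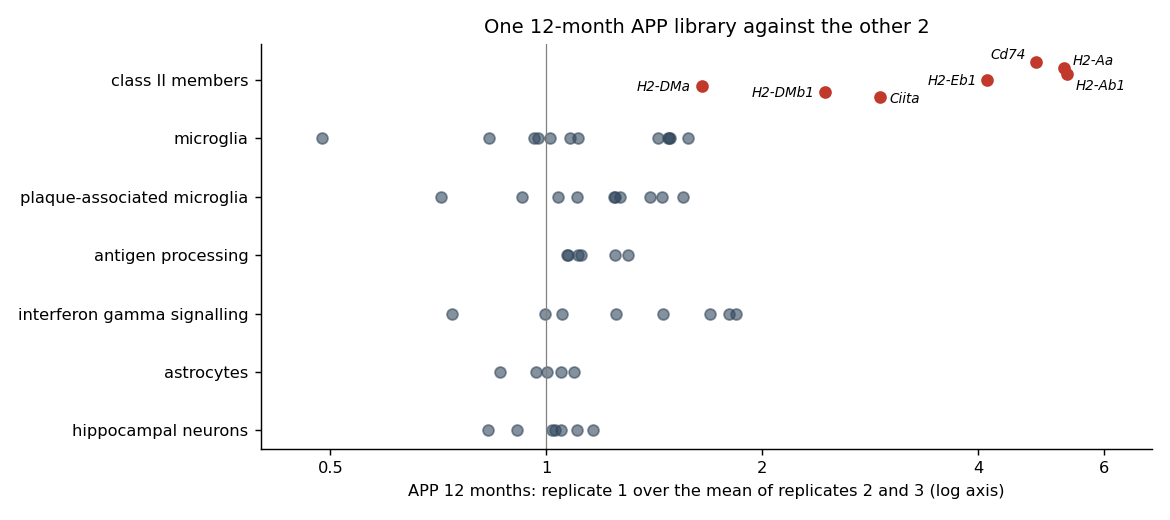
Ratio of APP 12-month replicate 1 to the mean of replicates 2 and 3 (x axis, log scale) for the 7 class II members in red and for the genes of 6 other lists in grey, with 1 point per gene and a mean scaled TPM of at least 1 in these libraries for the listed genes. The chains and Cd74 lie between 4.12 and 5.32, and no microglia gene lies above 1.57.

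Genes of pituitary hormones, looked at after their values were seen, were also uneven between these libraries. Growth hormone, Gh, was at 12.4, 1.27 and 0 scaled TPM in the 12-month APP replicates and at 11.4, 0.566 and 2.38 in the WT replicates of that age. Prolactin, Prl, was at 38.1, 14.7 and 3.59 in APP and at 5.03, 1.61 and 3.94 in WT, the same order over the APP replicates as Cd74. Pomc, the corticotropin precursor, was at 3.76, 0.635 and 1.01 in APP and at 2.71, 0.669 and 1.35 in WT. All 3 genes were highest in APP replicate 1 among the 12-month libraries. At 6 months APP replicates 1, 2 and 3 had 1.69, 0.309 and 18.1 of Gh, 7.79, 2.31 and 75.7 of Prl and 0.707, 0.806 and 7.14 of Pomc, all highest in replicate 3, while Cd74 was highest in replicate 2. The part of adjoining tissue in the class II values was not tested.

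At 6 months APP replicate 2 was the library that stood apart. It was at 4.69 times the mean of replicates 1 and 3 for Cd74, 3.33 for H2-Aa, 2.51 for H2-Ab1, 3.31 for H2-Eb1, 3.10 for H2-DMb1, 1.11 for Ciita and 0.953 for H2-DMa. In the same library the plaque-associated microglia genes had a median ratio of 2.53 and the microglia genes 1.70, and the 5 choroid plexus genes 0.189. Cd74, the 3 chains and H2-DMb1 were thus high in the library where the plaque-associated genes were high and choroid plexus RNA was low, and Ciita and H2-DMa were close to their level in the other 2.

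The class II genes were set against microglia RNA in the same library. Summed over 12 microglia genes (among them Cx3cr1, P2ry12 and Csf1r), the level was 416 to 544 scaled TPM in 12-month APP libraries, 192 to 227 in 12-month WT and 177 to 180 in 3-month APP libraries. Per 100 scaled TPM of these genes, Cd74 was at 17.9, 5.57 and 3.83 in the 12-month APP replicates and at 0.688, 1.24 and 1.71 in the WT replicates. In 3-month APP libraries the same quantity was 0.523 to 0.660. Cd74 relative to microglia RNA was therefore higher in every 12-month APP library than in every 12-month WT library. The summed chains per 100 scaled TPM were 3.86 to 16.4 in 12-month APP and 1.01 to 2.95 in 12-month WT libraries.

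H2-DMa behaved otherwise. Relative to the same microglia genes it was at 1.28 to 1.81 per 100 scaled TPM in 12-month APP libraries and 2.27 to 3.80 in 12-month WT libraries, so its share was lower in every APP library. Its tissue level overlapped between the genotypes, while the microglia sum in the denominator was higher in APP. The 10 plaque-associated genes (among them Cst7, Clec7a and Itgax) summed to 203 to 275 scaled TPM in 12-month APP and 70.7 to 75.6 in 12-month WT libraries.

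**Figure D4:**
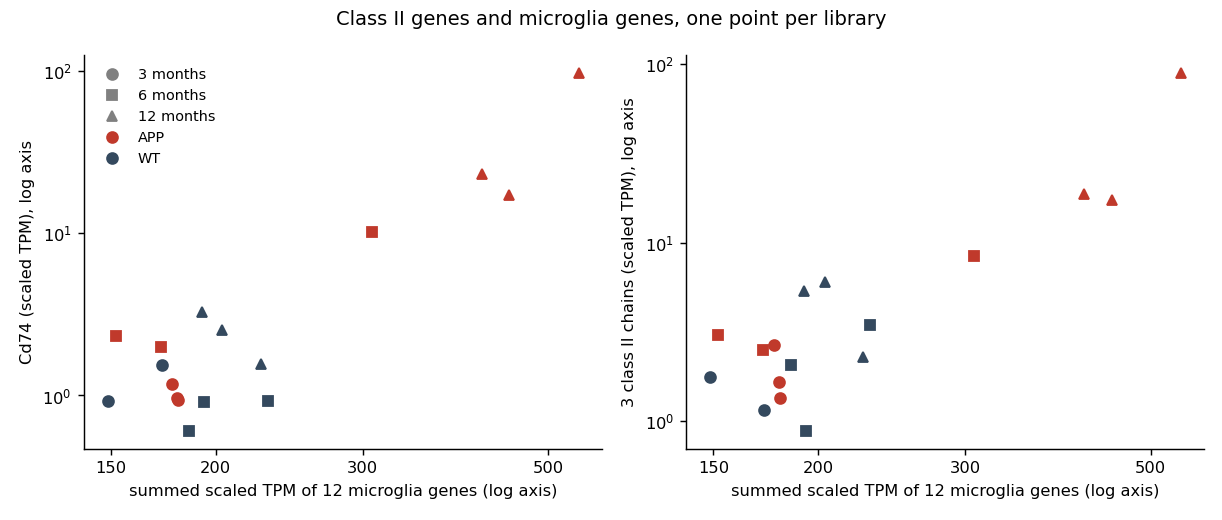
Cd74 (left) and the sum of H2-Aa, H2-Ab1 and H2-Eb1 (right) on the y axis against the summed level of 12 microglia genes on the x axis, all in scaled TPM on log axes, with 1 point per library (circles, squares and triangles for 3, 6 and 12 months, red for APP and dark for WT). The 12-month APP libraries lie at 416 to 544 on the x axis with Cd74 from 17.2 to 97.4, and APP 6-month replicate 2 lies between them and the rest.

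Other immune cells were followed through their markers. The 5 B cell markers summed to 0 to 0.121 scaled TPM in 12-month APP and 0 to 0.0916 in 12-month WT libraries, and 3 of the 5 were listed at 0 in all 17 libraries. The 6 T cell markers summed to 0.119 to 0.842 in APP and 0 to 0.235 in WT at 12 months, with 2 of the 6 at 0 in all libraries. B cell markers were thus near 0 where class II was highest. The 7 border macrophage markers summed to 2.36 to 9.22 in 12-month APP and 2.84 to 6.42 in 12-month WT libraries, and the 7 dendritic cell markers to 5.09 to 7.11 and 6.35 to 7.05. The 5 monocyte markers summed to 1.54 to 1.78 in APP and 0.178 to 3.75 in WT at 12 months, with 2 of the 5 at 0 in all libraries. The ranges of these 3 lists overlapped between genotypes at 12 months. In all 17 libraries, 5 of the 7 dendritic cell markers and 4 of the 5 monocyte markers were below 1 scaled TPM. The dendritic cell sum was mainly Flt3 (12-month means 2.65 in APP and 3.35 in WT) and Zbtb46 (2.97 and 3.06). The monocyte sum was mainly S100a4 (1.51 and 1.36). The overlap of those sums thus describes mainly these genes.

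The summed choroid plexus, astrocyte and endothelium genes did not overlap between the 12-month groups. The 5 choroid plexus genes summed to 1421 to 1644 scaled TPM in APP and 420 to 1295 in WT, and the 5 astrocyte genes to 757 to 883 and 407 to 429. The 5 endothelium genes summed to 20.9 to 26.2 in APP and 9.56 to 14.8 in WT. None of the 5 choroid plexus genes, none of the 5 endothelium genes and 1 of the 5 astrocyte genes was called. Most of the astrocyte gap was in Gfap, the filament protein of reactive astrocytes, with a mean of 534 in APP and 129 in WT, while Slc1a3 was at 136 and 135 and Gja1 at 92.5 and 101. Microglia genes were called higher for genotype at 12 months in 5 of 12 cases and plaque-associated genes in 7 of 10, with none lower in either list. Over all genes tested, 0.443% were called either way in that comparison and 0.420% higher. The lists were chosen with earlier results of these data known. From 3 to 12 months in APP the 7 hippocampal neuron markers went from 285 to 678 up to 744 to 808. The part of any of these in the class II values was not tested.

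The wider pathway was read from a list of 33 other genes present in the tables, of which 25 had a mean TPM of at least 1. The list was chosen with earlier results of these data known, so its counts are a description. For genotype at 12 months the median log2 change over the 25 was 0.17, against -0.0046 over all genes. In that comparison 5 of the 25 were called higher and 0 lower, while 0.420% of all genes tested were called higher. Of these 5, 4 were proteases, and antigen processing is represented by 6 genes in the list. Ctss, cathepsin S, which trims the invariant chain in antigen-presenting cells, was at 141, 108 and 109 scaled TPM in APP and 37.2, 36.6 and 36.4 in WT. The groups were far apart and replicate 1 of APP was only slightly higher than the others, unlike for Cd74. Ctss rose by 1.66 on the log2 scale (SE 0.23, limma adjusted p 0.00482).

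Ctsd, cathepsin D, a lysosomal aspartic protease, was at 349, 296 and 356 scaled TPM in APP and 129, 124 and 110 in WT, a rise of 1.45 (SE 0.19, limma adjusted p 0.00271). The lysosomal cysteine proteases Ctsl and Ctsb rose less, by 0.54 (limma adjusted p 0.0246) and 0.50 (limma adjusted p 0.00997). Irf8, a transcription factor of the myeloid lineage, was at 10.2, 6.42 and 5.65 in APP and 1.94, 1.49 and 3.41 in WT. Irf8 rose by 1.37 (SE 0.26, limma adjusted p 0.0282). Spi1, which encodes the myeloid factor PU.1, was 1.00 higher but did not pass (SE 0.35, limma adjusted p 0.461).

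**Figure D5:**
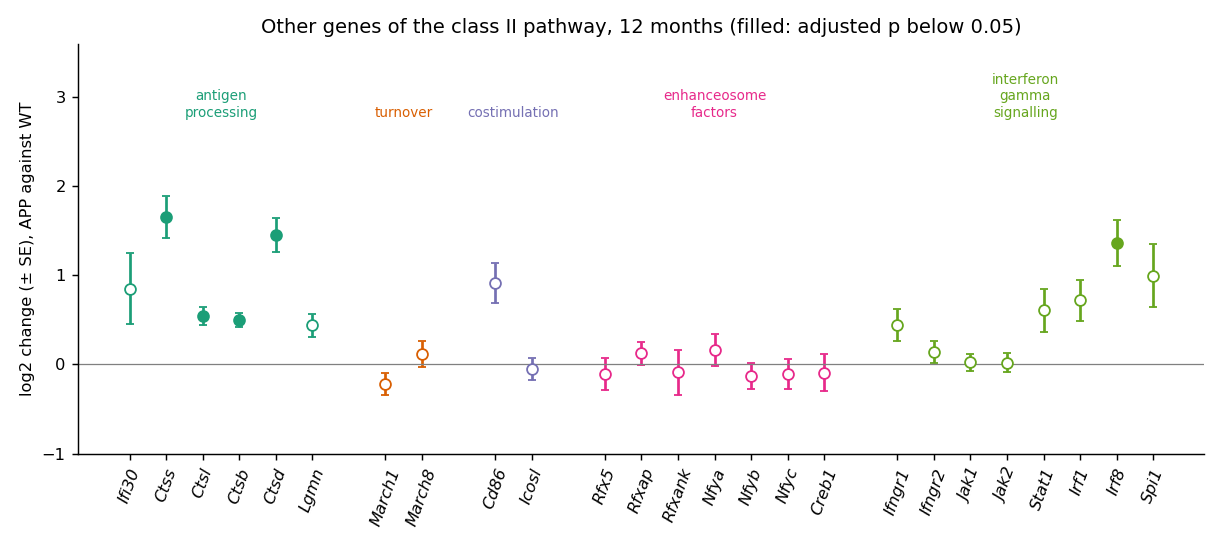
Difference between APP and WT at 12 months on the log2(scaled TPM + 1) scale (y axis, bars of 1 SE) for the 25 tested genes of the class II pathway other than the members, grouped by role, with filled points where the limma adjusted p is below 0.05. Ctss, Ctsl, Ctsb, Ctsd and Irf8 are filled, and the 7 promoter factors lie between -0.13 and 0.17.

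The factors that recruit Ciita to class II promoters were also read. None of the 7 (Rfx5, Rfxap, Rfxank, Nfya, Nfyb, Nfyc and Creb1) was called at 12 months, and their median log2 difference was -0.091. Of 8 tested genes of interferon gamma signalling, the pathway that induces Ciita, Irf8 alone was called, with a median of 0.53 over the list. Ifng itself was listed at 0 in 16 of 17 libraries and at 0.0968 scaled TPM in APP 12-month replicate 2. From 3 to 12 months in APP mice 7 of the 25 pathway genes were called higher and 0 lower, with a median of 0.27. In that comparison 1.92% of all genes tested were called higher.

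H2-Oa and H2-Ob encode H2-O, which restrains H2-DM. They were too low for the main test. H2-Ob was at 1.53, 1.14 and 1.58 scaled TPM in 12-month APP libraries and 0, 0.452 and 0.172 in WT, with no overlap and with replicate 1 of APP not above replicate 3. With no minimum, H2-Ob was 1.01 higher in APP at 12 months (limma adjusted p 0.00801). H2-Oa was at 1.91, 0.790 and 0.761 in APP and 0.621, 0 and 0 in WT (log2 difference 0.83, limma adjusted p 0.235). H2-Eb2 and the pseudogene H2-Ea-ps were listed at 0 in all 17 libraries.

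Across the 17 libraries the 10 genes outside the members whose log2 levels were most like that of Cd74 were Rnf213, Lag3, Gm8995, Ctss, H2-K1, AU020206, Ccl6, Tyrobp, H2-D1 and Tlr13. Pearson's r with Cd74 ran from 0.966 for Rnf213 to 0.942 for Tlr13 over 17 libraries, and from 0.953 for AU020206 to 0.984 for H2-K1 over the 9 APP libraries. H2-K1 and H2-D1 encode class I heavy chains, Tyrobp an adaptor of microglial receptors and Lag3 a receptor that binds class II. Among the members r was 0.963 for H2-Aa, 0.956 for H2-Ab1, 0.914 for H2-Eb1 and 0.646 for H2-DMa. Without the 2 libraries APP 12-month replicate 1 and APP 6-month replicate 2 these became 0.923, 0.915, 0.810 and 0.462. These r are a description, since the libraries share groups and ages.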

How the data were processed

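Per the file headers, the deposited tables give for each gene the TPM, the FPKM and the coverage. The authors made TPM, FPKM and coverage with tools that the submitters' processing notes list without roles: cutadapt 1.18, BWA 0.7.17, HISAT2 2.1.0, bedtools 2.26.0 and StringTie 1.3.4d, with GRCm38. In every table the deposited FPKM was a constant multiple of TPM, and the coverage signal is mean reads per base. No columns had an unknown sample.

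TPM was summed per gene identifier and scaled by the median of ratios over 17141 genes (size factors 0.693 to 1.47). limma 3.58.1 in R 4.3.3 was fitted to log2(scaled TPM + 1) of the 17840 genes with a mean deposited TPM of at least 1, over 17 mouse libraries in 6 groups, with a trend, robust empirical Bayes and Benjamini-Hochberg adjustment over all genes tested. A gene was called under 0.05. Fold ratios are of mean scaled TPM. The procedure was tested on simulated data. With fewer than 4 libraries a group, precision is limited by their number. The depth in reads is unknown, so no counting interval is given.

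All 7 members are named, then the pathway genes called for genotype at 12 months, filled to 6 by size, and the 10 genes most like Cd74. The members and gene lists were chosen with earlier results of these data known. Other scalings, pseudocounts, minimums, designs and left-out libraries were tried. The 14 long-RNA libraries of HT-22 cells were used only as a description, and the 31 short-RNA libraries were not analysed here.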

Additional observations from a re-analysis of the deposited data

Results flagged for a closer look

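HT-22, a mouse hippocampal neuron line of the same series, is outside the comparisons above, and the beta subunits of H2-DM were present in it above the WT hippocampus. The 14 HT-22 libraries came from cells given amyloid beta or a reverse peptide, each with a scramble or an anti-Hsf1 treatment. They are pooled here. H2-DMb1 had a median of 5.23 TPM as deposited over the 14 HT-22 libraries (2.68 to 6.54), against 0.393 (0 to 0.951) over 8 WT hippocampus libraries. Its group means ran from 3.94 TPM (amyloid beta, anti-Hsf1) to 6.12 TPM (reverse peptide, anti-Hsf1), a difference that was not tested. The paralogue H2-DMb2 had a median of 2.69 TPM (1.39 to 4.08) against 0 (0 to 0.227). As listed, both genes were thus higher in every HT-22 library than in every WT hippocampus library. That comparison of a cell line with a tissue was not tested. How the counting divided reads between this near-identical pair is not stated, so the values of the pair may not be independent. Coverage in HT-22 was 1.23 to 3.64 reads per base for H2-DMb1 and 0.319 to 2.07 for H2-DMb2. In the same HT-22 libraries H2-Aa, H2-Ab1 and H2-Eb1 were listed at 0 in all 14, Cd74 was at 0.031 to 1.67 TPM, H2-DMa at 0 to 7.41 TPM and Ciita at 0 to 0.311 TPM. The HT-22 line thus had H2-DM beta subunit RNA with no RNA of the classical chains listed.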

How the results depend on the processing

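Over 591 recomputed member changes, 557 kept their side of the threshold, 26 lost it, 8 gained it and 0 called ones changed sign, while 17 uncalled ones did. Members called for genotype at 6 months numbered 2 with TPM as deposited. For genotype at 12 months they numbered 3 with TPM as deposited, 3 with array weights, 0 with the contrast's groups alone and 0 to 1 with a library left out. For 12 against 3 months in APP they numbered 1 with a minimum mean TPM of 5 (which leaves fewer members tested), 1 with the contrast's groups alone and 3 to 4 with a library left out. For 12 against 6 months in APP they numbered 0 with TPM as deposited, 0 with no minimum, 0 with those groups alone, 1 with quantile normalisation, 1 with a pseudocount of 0.1, 1 with a minimum of 5, 1 with the replicate block and 0 to 3 with a library left out. The causes were not tested, beyond the fewer genes or samples that the construction gives.

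The replicate block left 4 members called for 12 against 3 months. Replicate numbers gave no sign of pairing: over 40 pairs of same-numbered libraries the correlation of deviations ran from -0.146 to 0.228 (median -0.0070), and 3 exceeded 0.1. Over all genes, calls ran from 4 to 379 around 54 for genotype at 3 months, 37 to 10339 around 297 at 6 months, 25 to 151 around 79 at 12 months, 132 to 758 around 585 for 12 against 3 months in APP, 1 to 250 around 96 for 12 against 6 months, 2 to 1270 around 423 for 6 against 3 months, 8 to 24 around 11 for WT and 9 to 81 around 13 for the change of the genotype difference. With TPM as deposited the share of calls that were higher moved from 40.7% to 11.3% for genotype at 3 months, 58.5% to 71.7% for 12 against 3 months in APP, 95.8% to 80.8% for 12 against 6 months, 54.5% to 19.0% for WT and 53.8% to 95.1% for the change of the genotype difference. For 6 against 3 months in APP, 1207 were then higher and 63 lower, against 227 and 196. With quantile normalisation it moved from 25.3% to 45.7% for genotype at 6 months and to 65.2% for 6 against 3 months in APP. Of the 7 members, Ciita had the lowest median coverage, 0.261 reads per base over the 17 libraries.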
